A study of Mus musculus with 6 samples.

Results

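The genes described here are 7 genes widely used to mark newborn neurons and their progenitors in the adult hippocampus: Dcx, Sox11, Sox4, Neurod1, Eomes, Igfbpl1 and Draxin. They were chosen by name, and all 7 were found by symbol among the 26049 genes of the deposited single-nucleus matrix. Their levels were followed through the 32 clusters and 9 classes of the authors and through the 6 libraries. The 7 genes did not share 1 highest cluster, and each gene had its own distribution over neuronal and glial clusters. Eomes and Draxin, with 7 and 96 counted transcripts in all, were too sparse to show whether any cluster expresses the set together. The set's name is therefore not used here as a description of cells, and the genes are described below one by one.

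The libraries came from microdissected, frozen hippocampi of male PS19 mice, whose human tau transgene carries the P301S change and is driven by the mouse prion protein promoter. Mice had a sham operation or a mild controlled cortical impact over the right hemisphere (TBI), and received an adeno-associated virus coding for GFP (AAV-GFP) or for the lymphatic growth factor VEGFC (AAV-VEGFC). Each virus was given to sham and to injured mice. For each virus there was 1 library of the right hippocampus after sham, 1 of the right after TBI and 1 of the left after TBI. All 6 carry the transgene and a virus, sham was taken on the right only, and the sources used here give neither the age of the mice nor how many were pooled into a library. The p-values below therefore measure only the spread between these libraries, and for the left hippocampus injury and side cannot be told apart. The libraries held 3676 to 6002 nuclei and 15358208 to 18379148 UMIs (transcript molecules, each counted once by its molecular identifier), with 2689 to 3704 UMIs in the median nucleus. Of the barcode sequences, 91 occurred in more than 1 library among 28650 nuclei.

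In the adult mouse, new granule neurons arise in the dentate gyrus from radial glia-like stem cells, which give rise to dividing progenitors marked by the transcription factor Eomes (Tbr2). Their daughters pass through a stage with Neurod1, Sox4, Sox11, Igfbpl1 and the microtubule protein doublecortin (Dcx) before they mature into granule neurons with Prox1 and calbindin. Several of these genes are also used outside that lineage, Sox4 in glial precursors for example, and tau pathology and head injury are both conditions in which this lineage has been studied.

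Levels are given in CPM, the UMIs of a gene scaled to a common total of UMIs in the nuclei in question, as is usual for sequencing counts. Because the assay counts 3' ends, mostly of nuclear RNA, levels are compared between clusters or libraries for 1 gene and not between genes. Where values come in pairs, the GFP library stands first and the VEGFC library second.

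Dcx was detected in 3898 nuclei (13.6%) with 5667 UMIs, and 97.4% of those UMIs were in neurons. Inhibitory neurons held 52.4% of them although they gave 19.4% of all UMIs, excitatory neurons held 38.3%, and the dentate granule-like clusters held 2.47% with 17.0% of all UMIs. The granule-like clusters are excitatory clusters 2 and 3, whose leading genes include Plk5, C1ql2, Stxbp6, Dsp and Prox1. Ordered by level, inhibitory clusters 7 (183 CPM), 1 (171 CPM) and 2 (157 CPM) came first, and the range over libraries of each overlapped that of the next. The 10 leading genes of inhibitory cluster 1 include the listed interneuron markers Lhx6 and Pvalb. The dentate granule-like clusters stood at 8.19 CPM (6.89 to 9.67, exact Poisson 95% interval), and oligodendrocytes at 0.308 CPM (1 UMI). This interval and those below cover counting error only.

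By nuclei, Dcx was present in 43.6% of inhibitory neurons and in 2.76% of granule-like nuclei, at median depths of 4134 and 3419 UMIs. After each nucleus was thinned to 1000 UMIs the shares were 13.2% (12.2% to 14.2%, exact binomial interval) and 1.02% (0.75% to 1.35%). Free RNA in the droplets can place a UMI in a nucleus that does not express the gene, and the share in oligodendrocytes, 0.0442% both before and after thinning, is the lowest estimate of that background for Dcx among the classes outside neurons and OPC with a UMI after thinning. Astrocytes (0.123%, median 1671 UMIs) and fibroblasts (0.243%, 1 of 412 nuclei) gave higher ones. Oligodendrocyte precursors (OPC) were above all 3, at 63 CPM and 5.94% of thinned nuclei (4.55% to 7.60%).

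**Figure D1:**
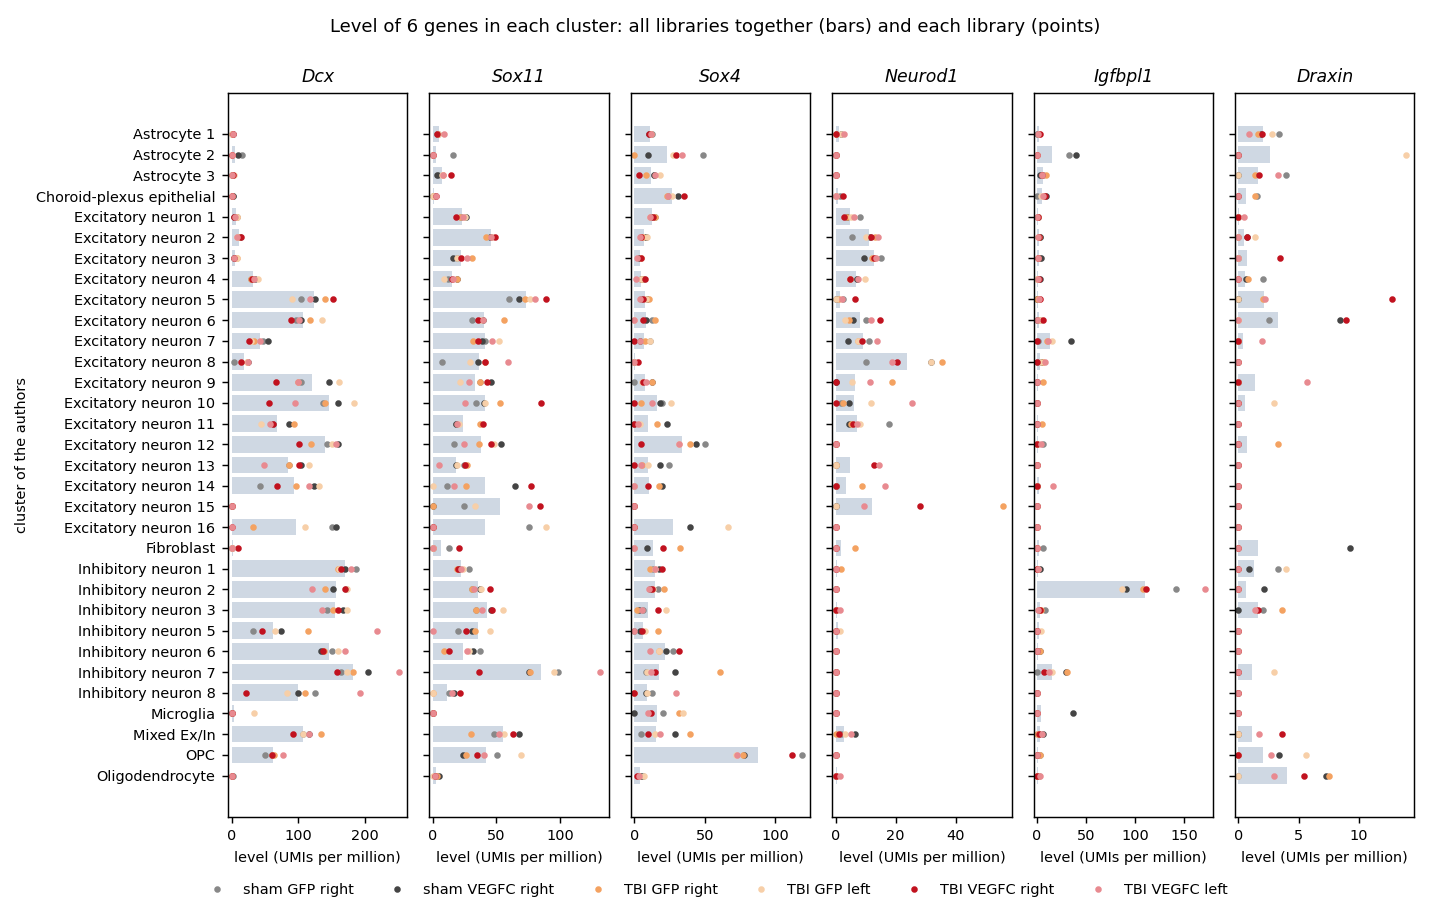
Level of 6 of the genes in each of the authors' 32 clusters, in CPM on a linear axis of its own for each gene; bars are all libraries together and points are the 6 libraries. Dcx is spread over inhibitory and several excitatory clusters, Sox4 stands highest in OPC (88 CPM) and Igfbpl1 in Inhibitory neuron 2 (110 CPM), while a few small clusters have widely scattered points.

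Dcx is a 77470-base gene on chromosome X (chrX:143855842-143933311, minus strand, GRCm38, the build named mm10 by the submitters), of which 16.3% is exon. Sox4 and Sox11 belong to a family of transcription factors known to act on the Dcx promoter in newborn neurons, so the promoters of the set were searched for the core SOX motif ACAAAG on both strands. Promoters here are the 250 bases before and 50 after each RefSeq start (GRCm38.p6), and 6 of the 7 genes had an entry, with 7 entries in all. The motif was present in 1 of the 2 Dcx entries and in the Draxin entry, against 18.7% of all 32851 promoters of that length. The E-box CAGATG, a motif of the NEUROD type that shares no overlap with the first, was in none of the 7 entries and in 17.2% of all promoters. The Dcx entry with the motif is printed 5′ to 3′ on the gene's strand (chrX:143933075-143933374, minus strand), with the motif in capitals.
Dcx promoter: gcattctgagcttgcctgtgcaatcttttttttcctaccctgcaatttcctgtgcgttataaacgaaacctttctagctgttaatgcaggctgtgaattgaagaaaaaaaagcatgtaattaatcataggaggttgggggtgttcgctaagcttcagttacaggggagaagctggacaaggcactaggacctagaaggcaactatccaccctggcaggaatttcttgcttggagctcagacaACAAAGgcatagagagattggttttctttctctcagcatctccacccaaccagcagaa

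A motif match describes the letters only. Over the 32 clusters, the levels of Dcx and Sox11 rose and fell together with a Pearson r of 0.66 on log2(CPM + 1), and those of Dcx and Sox4 with 0.31, descriptions over clusters that share libraries and differ in depth. Within clusters, the share of nuclei with Dcx was compared between nuclei with and without Sox11, with no test. Among the 4609 granule-like nuclei, Dcx was present in 3.17% of the 504 with Sox11 and in 2.70% of the 4105 without it, at median depths of 3882 and 3352 UMIs. In inhibitory cluster 1 the shares were 50% with Sox11 and 52.1% without it. In inhibitory cluster 7 they were 50% of 62 nuclei and 39.7% of 232, where nuclei with Sox11 were also deeper (medians of 3500 and 2826 UMIs). In OPC the order was the opposite, 5.63% of 71 nuclei with Sox11 (4 nuclei) and 11% of 922 without, at medians of 1880 and 1800 UMIs.

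The genes whose level over clusters was most like that of Dcx were Frmd3 (r = 0.941), Vwa5b2 (0.913), Chd5 (0.908), Dpp10 (0.905) and Acr (0.905).

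Sox11, a transcription factor of the SoxC group that is needed for the maturation of newborn neurons, was detected in 2341 nuclei (8.17%) with 2807 UMIs, 94.5% of them in neurons. Excitatory neurons held 64.5% and the granule-like clusters 20.5%, near their 17.0% of all UMIs. The 3 highest clusters were inhibitory cluster 7 (85.1 CPM, 36.1 to 132 over libraries), excitatory cluster 5 (73.3 CPM, 60.3 to 89.0) and the mixed excitatory and inhibitory cluster (55.3 CPM, 29.9 to 68.0), whose ranges overlap. The 10 leading genes of inhibitory cluster 7 include Foxp2, the dopamine receptor gene Drd1 and Meis2. Foxp2 is listed here as a marker of cortex, Drd1 of striatal projection neurons and Meis2 of olfactory or ventricular zone neuroblasts. The other genes of that neuroblast list were highest in other clusters. The 10 leading genes of excitatory cluster 5 include Dpp10 and Tbr1. Within the granule-like pair, cluster 2 had 45.4 CPM of Sox11 (41.7 to 48.8 over libraries). The genes most like Sox11 over clusters were Minar2 (r = 0.893), Unc79, Khdrbs2, Shank3 and Syn1 (0.881), the last 2 being genes of synapses.

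Sox4, the other SoxC factor of the set, had 1239 UMIs in 1101 nuclei, and 66.6% of its UMIs were in neurons. Its highest cluster was OPC at 88 CPM, with 72.5 to 119 CPM over the 6 libraries, and no library of the next cluster (excitatory cluster 12, 33.7 CPM, 5.09 to 49.9) reached that range. Excitatory cluster 16 (27.5 CPM) and the choroid plexus epithelium (26.7 CPM) followed. Oligodendrocytes, the cells that OPC give rise to, stood at 4.01 CPM, with 0.442% of thinned nuclei positive against 7.45% (5.90% to 9.27%) of OPC. The OPC cluster is led by Neu4, Pdgfra, Gpr17, Cspg4 and Vcan, and Sox4-positive OPC held Dcx in 11.4% of 140 nuclei and the others in 10.4% of 853, at median depths of 2077 and 1754 UMIs. Hjurp (r = 0.809), Zscan21, Pcmtd2, Prkra and Pid1 (0.751) were the genes most like Sox4. Sox4 overlaps the noncoding gene Gm26735 on the other strand, and the use of strand in the counting is not known here.

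Neurod1, a basic helix-loop-helix factor of the granule neuron lineage, had 479 UMIs in 443 nuclei. Excitatory neurons held 94.8% of them and the granule-like clusters 42.4%, the highest granule-like share of the 7 genes. Its level was highest in excitatory cluster 8 (23.8 CPM, 10.2 to 35.5 over libraries), followed by granule-like cluster 3 (12.6 CPM, 9.45 to 15.1) and the small excitatory cluster 15 (12.2 CPM), with overlapping ranges. Excitatory cluster 8 is led by Trhr, Ntn5 and Grp. Inhibitory neurons held 4 UMIs, in 3 of 4382 nuclei, and OPC held none. Of the granule-like nuclei with Neurod1, 12.3% of 187 also had Sox11, against 10.9% of 4422 without it, at median depths of 4486 and 3387 UMIs. The genes most like Neurod1 were Prdm8 (r = 0.929), Slc30a3, Rtn4rl2, Fgf5 and Bhlhe22 (0.847). Neurod1 lies within Cerkl on the same strand (chr2:79452521-79456751, minus strand), so some of its counts may belong to that gene.

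Eomes, the factor of dividing progenitors, was close to absent, with 7 UMIs in 7 nuclei of 28650. They fell in the mixed cluster (3 UMIs), the choroid plexus (2), astrocyte cluster 1 (1) and astrocyte cluster 3 (1), and the excitatory, inhibitory and granule-like nuclei held 0. The libraries had 1 and 3 UMIs in sham, 0 and 2 on the right after TBI and 0 and 1 on the left, so Eomes could not be compared between groups.

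Igfbpl1, a member of the insulin-like growth factor binding protein family, had 746 UMIs in 531 nuclei, and 71.3% of them (532) were in the single cluster Inhibitory neuron 2 (inhibitory cluster 2 above). That cluster stood at 110 CPM (86.3 to 171 over libraries), apart from the next, astrocyte cluster 2 (15.7 CPM) and inhibitory cluster 7 (15.3 CPM). Of its 1066 nuclei, 31.8% had Igfbpl1, and 10.1% after thinning (8.39% to 12.1%), against 0.177% and 0.0885% of oligodendrocytes. Inhibitory cluster 2 is led by Ano1, Col6a3, Igfbpl1 itself and Cpa6, and by Zic1, Prkcd and Zic4, listed here as markers of thalamus or habenula and not of interneurons. Dcx was present in 46.3% of the 339 nuclei with Igfbpl1 and in 45.5% of the 727 without, at median depths of 5088 and 3903 UMIs. In the granule-like clusters Igfbpl1 had 32 UMIs (1.87 CPM), present in 0.595% of nuclei with Sox11 (3 of 504) and in 0.585% of those without (24 of 4105). Among the genes most like Igfbpl1 over clusters were Hnrnpd (r = 0.622), Col6a3, Ano1 and Spata13 (0.591).

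Draxin, a secreted protein that repels growing axons, had 96 UMIs in 70 nuclei. Oligodendrocytes (4.01 CPM, 13 UMIs), excitatory cluster 6 (3.30 CPM) and astrocyte cluster 2 (2.61 CPM) were the highest, each with at least 1 library at 0, and no neighbours in the order differed beyond their spread. Hhip (r = 0.718), Slc6a9, Klhl40, Megf10 and Scd2 (0.684) were most like it. The gene overlaps Mad2l2 on the other strand. Its RefSeq promoter, shown because it holds the SOX core as CTTTGT in 2 places (capitals), has a GC content of 78.0% against a median of 52.7% (chr4:148130649-148130948, minus strand, GRCm38.p6).
Draxin promoter: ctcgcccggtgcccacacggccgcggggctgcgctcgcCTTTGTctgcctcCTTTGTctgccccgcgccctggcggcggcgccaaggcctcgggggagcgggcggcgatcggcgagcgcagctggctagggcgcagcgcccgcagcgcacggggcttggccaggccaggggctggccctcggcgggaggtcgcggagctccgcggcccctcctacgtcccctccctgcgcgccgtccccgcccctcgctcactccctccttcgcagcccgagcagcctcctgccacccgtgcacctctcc

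Nuclei with several of the 7 genes were then counted, as a range of nuclei and not a cell type. Thinned to 1000 UMIs, 13 of 4312 and 26 of 6002 nuclei of the sham libraries had at least 2 of the genes, 21 of 4950 and 16 of 4282 of the right TBI libraries, and 23 of 5428 and 11 of 3676 of the left. The shares were 0.301% and 0.433% in sham, 0.424% and 0.374% on the right after TBI, and 0.424% and 0.299% on the left, so the groups overlapped. The log2 ratio of right TBI over sham was 0.14, with an exact two-sided permutation p of 1 (the smallest that 2 against 2 libraries allow is 0.333). After thinning, their share was highest in excitatory cluster 12 (2.9%, 8 nuclei), inhibitory cluster 7 (2.72%, 8 nuclei) and Inhibitory neuron 2 (1.97%, 21 nuclei), all high in Dcx. Before thinning, Inhibitory neuron 2 came first (24.2%) and inhibitory cluster 7 next (15.6%). In the granule-like clusters they numbered 0 and 2 in sham, 1 and 3 on the right after TBI and 0 and 0 on the left, after thinning.

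The summed level of the stem cell list was highest in astrocyte cluster 2 (3826 CPM, against 3311 CPM in astrocyte cluster 3, the next), a cluster chosen for description after its leading genes were seen. Thrsp (737 CPM against 134 CPM in the other astrocytes), Hopx (368 against 99.6), Tfap2c (26.1 against 0.199) and Frzb (91.4 against 2.49) were among its 10 leading genes, and all 4 are on the lists of stem cells, early progenitors or niche regulators used here. Those lists were chosen with earlier results of these data known, so neither the summed level nor this overlap is independent of the data. Emx1 (78.4 against 3.69), Lpar1 (151 against 9.97), Prox1 (120 against 19.7) and the cyclin gene Ccnd2 (107 against 30.6) were also higher there, values described without a test because the cells were clustered on these genes. Ntsr2 (319 against 541) and Aldoc (110 against 147) of the stem cell list were lower there. Of the cycling list, Mki67, Top2a, Mcm2, Mcm3, Cdk1 and Kif11 had no UMI in the cluster. Pcna (2.61 against 10.8) and Mcm5 (2.61 against 0.299) rested on 1 UMI each there. Cenpf (7.84 against 1.89) rested on 3 UMIs in 1 nucleus, and all 3 genes were too sparse to compare. Cdk6 was higher (39.2 against 2.19, 15 UMIs), and Hmgb2 was near level (15.7 against 15.9, 6 UMIs). The cluster held 207 nuclei, with a median of 1672 UMIs. Of the 7 genes, it had 9 UMIs of Sox4, 6 of Igfbpl1, 2 of Dcx, 1 each of Sox11 and Draxin and none of Neurod1 and Eomes. The Igfbpl1 UMIs were 2 and 4 in the sham libraries and 0 in the 4 TBI libraries, where 0 counts allow 41.8 to 88.4 CPM, so no difference was detectable at this depth.

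Astrocyte cluster 2 made up 0.765% (33 nuclei, 0.527% to 1.07%) and 0.95% (57 nuclei, 0.720% to 1.23%) of the sham libraries. After TBI it made up 0.545% (27 nuclei, 0.360% to 0.793%) and 0.444% (19 nuclei, 0.267% to 0.692%) on the right, and 0.811% and 0.734% on the left. Both right TBI libraries were below both sham libraries (log2 ratio -0.79), and the left ones reached 0.811%, within the sham range, and 0.734%, just below it. The exact permutation p was 0.333, the smallest this design allows.

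Whether injury shifted the genes was tested on UMIs summed by class and library with edgeR's quasi-likelihood test, in a model with a term for vector and one for context, that is sham, TBI right or TBI left. A call is a Benjamini-Hochberg adjusted p below 0.05 over all genes tested in a class. Only 5 of the 7 genes passed the filter on low counts in any class, in 18 gene and class pairs: Sox4 in 6 classes, Sox11 in 5, Dcx in 4, Igfbpl1 in 2 and Neurod1 in 1. For TBI right against sham right, 0 of the 18 pairs were called, beside 0.0782% of all gene and class pairs. At an unadjusted p below 0.05 there was 1 of 18, beside 5.03% of all pairs, and DESeq2 and limma-voom called 0. The median log2 fold of the 18 was -0.06, against -0.001 over all pairs.

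For TBI left against sham right, which uses the same sham libraries, 0 of 18 were called (0.104% of all pairs). At an unadjusted p below 0.05 there were 2 of 18, beside 5.57% of all pairs. For VEGFC against GFP over the 3 contexts, 0 of 18 were called (0.0281% of all pairs), with 1 at an unadjusted p below 0.05 (5.4% of all pairs). DESeq2 and limma-voom called 0 in both comparisons. Beside Igfbpl1 in inhibitory neurons, described below, the pair under 0.05 before adjustment was Sox4 in excitatory neurons, in both. It stood at 10.5 and 9.76 CPM in sham, 10.2 and 7.32 CPM on the right after TBI and 8.96 and 5.84 CPM on the left, with log2 folds of -0.47 (SE 0.19, edgeR adjusted p = 0.875) for TBI left and -0.35 (SE 0.15, adjusted p = 0.749) for VEGFC. With libraries left out in turn, the first ranged from -0.67 to -0.29, lowest in size without the sham VEGFC library, and the second from -0.5 to -0.26, neither with a call. By cluster, the clusters with at least 20 nuclei in every library and the granule-like pair together were tested. Of 47 gene and cluster pairs, 0 were called for TBI right against sham right (0.0551% of all such pairs), and DESeq2 called 0. At an unadjusted p below 0.05 there was 1, beside 5.04% of all such pairs. It was Sox11 in inhibitory cluster 6 (-1.63, SE 0.63, edgeR adjusted p = 0.969). The granule-like pair is counted there beside its 2 clusters, so some pairs share nuclei.

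**Figure D2:**
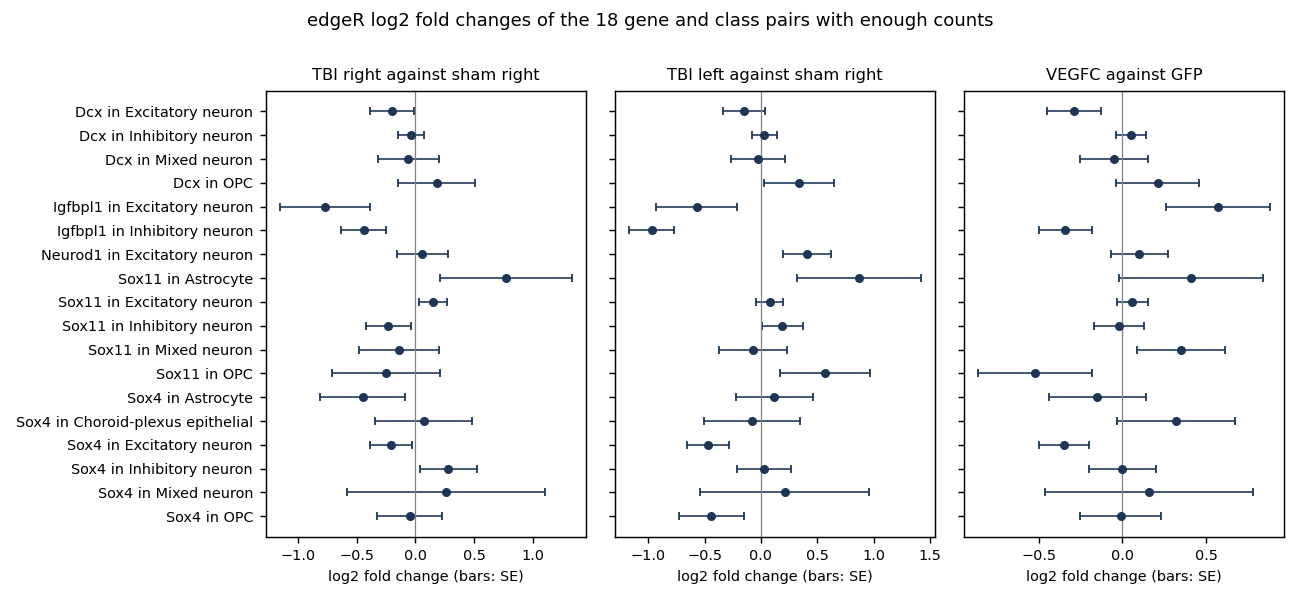
Log2 fold changes (points) with their SE (bars) from edgeR for the 18 gene and class pairs that passed the filter, for the 3 comparisons of the additive model; each panel has its own axis. Dcx in inhibitory neurons lies within 0.05 of 0 in all 3, and Igfbpl1 in inhibitory neurons is the lowest for TBI left (-0.97).

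Dcx in inhibitory neurons had the most precise estimate. It stood at 157 and 154 CPM in sham, 149 and 147 CPM on the right after TBI and 146 and 163 CPM on the left, and the groups overlapped. The log2 fold was -0.04 (SE 0.11) for TBI right and 0.03 (SE 0.11) for TBI left, edgeR adjusted p = 0.995 and 0.981. In the granule-like clusters Dcx stood at 7.78 and 8.73 CPM in sham, 9.81 and 8.64 CPM on the right after TBI and 8.66 and 5.70 CPM on the left. Its log2 fold for TBI right there was 0.15 (SE 0.32, edgeR adjusted p = 0.983), a difference smaller than its SE.

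Sox11 in the granule-like clusters was at 32.7 and 31.1 CPM in sham, 36.8 and 33.9 CPM on the right after TBI and 31.6 and 36.2 CPM on the left. Both right TBI libraries were above both sham libraries, by 0.15 on the log2 scale (SE 0.17, edgeR adjusted p = 0.962). Neurod1 in these clusters was at 10.2 and 10.5 CPM in sham, 12.7 and 12.2 CPM on the right and 11.8 and 13.7 CPM on the left. All 4 TBI libraries were above both sham libraries, but the log2 folds of 0.26 (SE 0.27) on the right and 0.31 (SE 0.27) on the left did not pass (edgeR adjusted p = 0.962 and 0.927). In OPC, Sox4 was at 119 and 78.0 CPM in sham and 77.5 and 112 CPM on the right after TBI, a log2 fold of -0.05 (SE 0.28, edgeR adjusted p = 0.991), so the libraries of 1 group differed more than the groups.

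**Figure D3:**
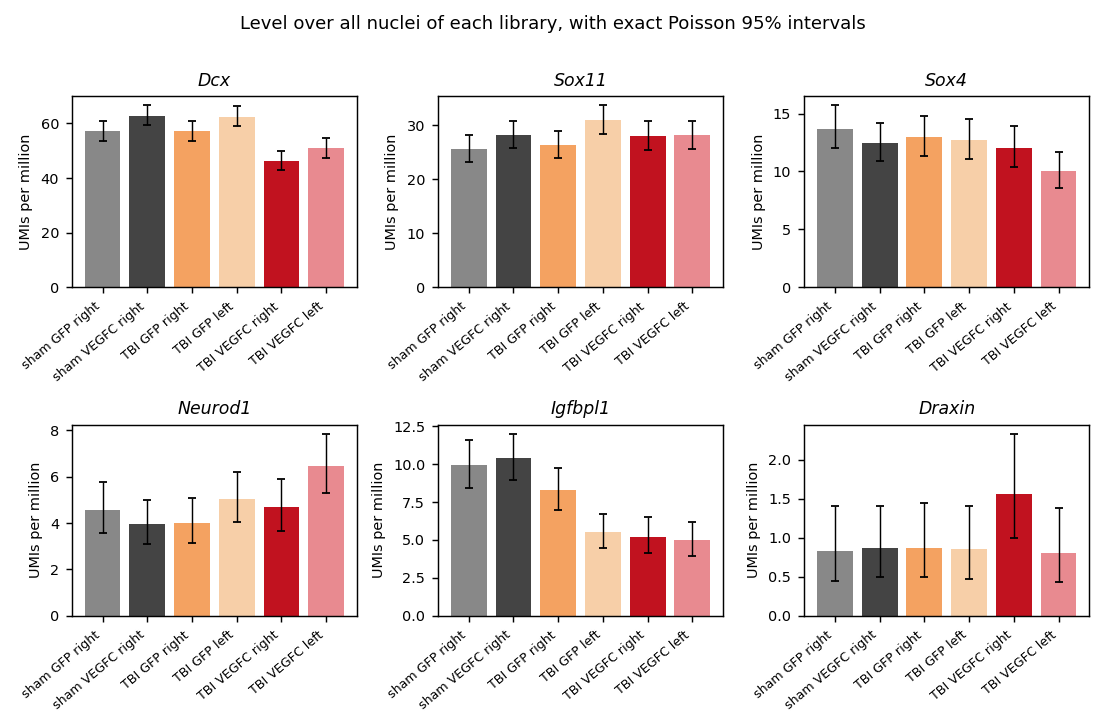
Level of 6 of the genes over all nuclei of each library, in CPM, with exact Poisson 95% intervals that cover counting error only. Igfbpl1 stands at 9.92 and 10.4 CPM in the sham libraries and at 4.98 to 8.27 CPM after TBI, Draxin has 1 high library (TBI VEGFC right, 1.56 CPM), and the other genes vary within narrower bounds.

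Over all nuclei, Igfbpl1 stood at 9.92 and 10.4 CPM in sham, 8.27 and 5.21 CPM on the right after TBI and 5.50 and 4.98 CPM on the left. The TBI libraries were all below both sham libraries. How many of all genes separate in this way was not counted. No gene of the set was called over all nuclei for TBI right against sham right (0 of 6 tested, beside 0.00519% of all genes). None was called for TBI left (0 of 6, beside 0.0104%), and DESeq2 called 0 in both comparisons. At an unadjusted p below 0.05 there was 1 of 6 in each, beside 5.3% of all genes on the right and 5.93% on the left. For Igfbpl1 the log2 folds were -0.60 (SE 0.19, edgeR adjusted p = 0.9) on the right and -0.96 (SE 0.20, adjusted p = 0.335) on the left. With libraries left out in turn, the right value ranged from -0.93 (without TBI GFP right) to -0.31 (without TBI VEGFC right), and was -0.38 without sham VEGFC. The left value ranged from -1.18 (without sham GFP) to -0.73 (without sham VEGFC). With all libraries and no filter on low counts, the left value passed (edgeR adjusted p = 0.0499).

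The share of nuclei in the 1 cluster that holds most Igfbpl1 also differed between libraries, not in the same order as the level. Inhibitory neuron 2 made up 3.94% and 6.40% of nuclei in sham, 4.14% and 2.15% on the right after TBI and 3.11% and 1.25% on the left. Inside the cluster, Igfbpl1 was at 142 and 90.3 CPM in sham, 108 and 111 CPM on the right after TBI and 86.3 and 171 CPM on the left, with 46 to 384 nuclei in a library. These levels overlapped, and the log2 fold inside the cluster was -0.03 (SE 0.25, edgeR adjusted p = 0.999) for TBI right and 0.04 (SE 0.27, adjusted p = 1) for TBI left. With every library given the same cluster composition, the log2 difference over all nuclei went from -0.63 to -0.20 on the right and from -0.96 to -0.08 on the left. With the cluster left out, the level over the remaining nuclei was 1.89 and 3.6 CPM in sham, 2.1 and 1.75 CPM on the right and 1.95 and 2.03 CPM on the left, and the right difference was -0.44. The part of cluster shares in the result was not tested.

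In all inhibitory neurons Igfbpl1 was at 43.3 and 34.3 CPM in sham, 35.2 and 21.2 CPM on the right after TBI and 18.9 and 20.3 CPM on the left. The log2 fold for TBI left was -0.97 (SE 0.20, edgeR adjusted p = 0.565, unadjusted p = 0.000804), and it passed with no filter on low counts (adjusted p = 0.000411). It was -1.24 without the TBI VEGFC left library and -0.63 without the TBI GFP left library, fits that leave 1 left library. The value for TBI right was -0.44 (SE 0.19, edgeR adjusted p = 0.995), and it ranged from -0.74 without TBI GFP right to -0.2 without TBI VEGFC right. With the composition of the class fixed, the log2 difference on the left was 0.04 in place of -0.98. Inhibitory neuron 2 was 26.0% and 34.3% of the inhibitory nuclei in sham and 11.2% to 30.7% after TBI. Without the cluster, Igfbpl1 in the class was at 2.74 and 3.79 CPM in sham and 1.34 to 3.16 CPM after TBI. The log2 differences were then -0.87 on the right, where the class as deposited gave -0.5, and -0.65 on the left. These differences rest on few UMIs and have no interval. The whole class held 76.3% of the 746 Igfbpl1 UMIs, and Inhibitory neuron 2 alone held 71.3%. With nuclei of a doublet score of at most 0.05 the log2 folds were larger, -1.30 on the right and -2.42 on the left, but did not pass (edgeR adjusted p = 0.9 and 0.936). The cluster's leading genes include listed markers of another brain region, and the part of that region in the result was not tested.

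**Figure D4:**
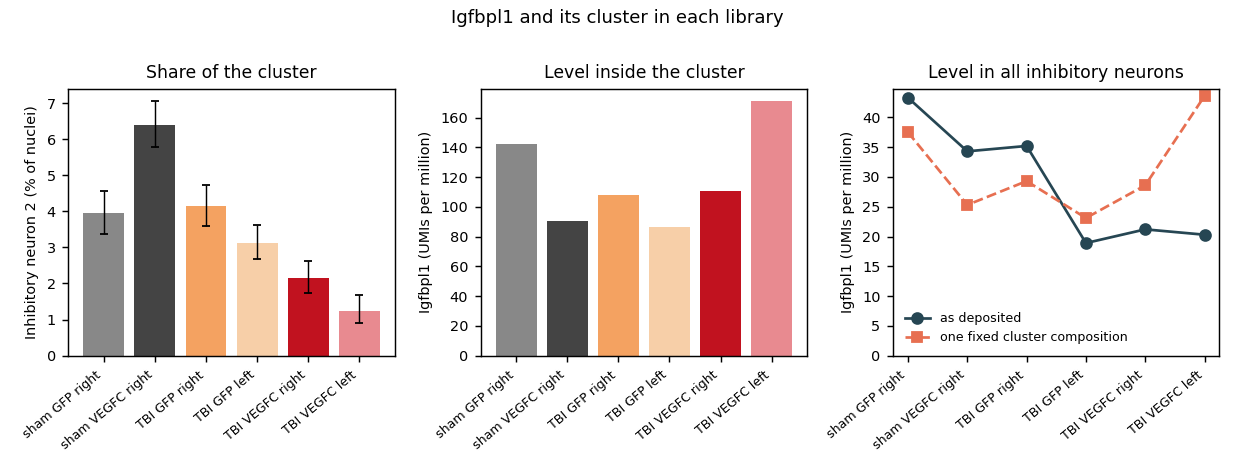
Igfbpl1 and its cluster in each library: the share of nuclei in Inhibitory neuron 2 with exact binomial 95% intervals (left), the level inside that cluster (middle), and the level in all inhibitory neurons as deposited and at one fixed cluster composition (right; lines only join the points). The share lies between 1.25% and 6.40%, and the level inside the cluster between 86.3 and 171 CPM, highest in TBI VEGFC left, where the share is lowest.

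Whether the vector acted differently after TBI than after sham was tested by the interaction of injury and vector, with both hemispheres of injured mice taken as replicates. The left and right libraries of a vector may come from the same mice, in which case they are not independent and the SEs of this comparison are too small. Of 19 gene and class pairs 0 were called (0.221% of all pairs), and DESeq2 and limma-voom called 0. At an unadjusted p below 0.05 there were 2, beside 7.23% of all pairs. One was Sox4 in mixed neurons, which rests on 3 to 15 UMIs a library (-2.97, SE 1.15, edgeR adjusted p = 0.286). The closest to the threshold was Dcx in excitatory neurons, at 36.8 and 43.5 CPM in sham, 46.4 and 24.7 CPM on the right after TBI and 41.3 and 32.6 CPM on the left. Dcx was thus higher with VEGFC than with GFP in sham and lower with VEGFC on both sides after TBI. The interaction was -0.80 on the log2 scale (SE 0.20, edgeR adjusted p = 0.217). It passed with only nuclei of a doublet score of at most 0.05 (-1.03, edgeR adjusted p = 0.00321). That smaller set of nuclei left fibroblasts and microglia with an empty library. With a TBI library left out, the interaction was -0.70 without TBI GFP right and -0.89 without TBI GFP left. It was smallest, -0.61, without TBI VEGFC right.

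Excitatory clusters differ widely in Dcx, and the shares of several also differed between libraries. Excitatory cluster 10, led by Xirp2 and Igfn1 and at 147 CPM of Dcx, made up 2.32% and 1.82% of nuclei in sham, 1.68% and 0.117% on the right after TBI and 1.23% and 0.707% on the left. It held 5 nuclei in the TBI VEGFC right library and 26 in the TBI VEGFC left library. Excitatory cluster 5, at 124 CPM of Dcx, made up 2.23% and 3.13% of nuclei in sham. After TBI it made up 4.73% and 1.42% on the right and 2.38% and 1.93% on the left. The granule-like clusters 2 and 3, at 11.1 and 5.33 CPM, together made up 15.0% and 15.6% in sham. After TBI they made up 13.2% and 19.0% on the right and 17.9% and 15.9% on the left. Without excitatory cluster 10 the interaction, computed from CPM, was -0.84 in place of -0.87, and with the composition of the class fixed it was -0.53. The part of cluster shares in the Dcx result was not tested. At fixed composition the levels were 34.9 and 41.3 CPM in sham, 39.0 and 31.5 CPM on the right after TBI and 40.8 and 33.7 CPM on the left, the same order as before within each pair.

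**Figure D5:**
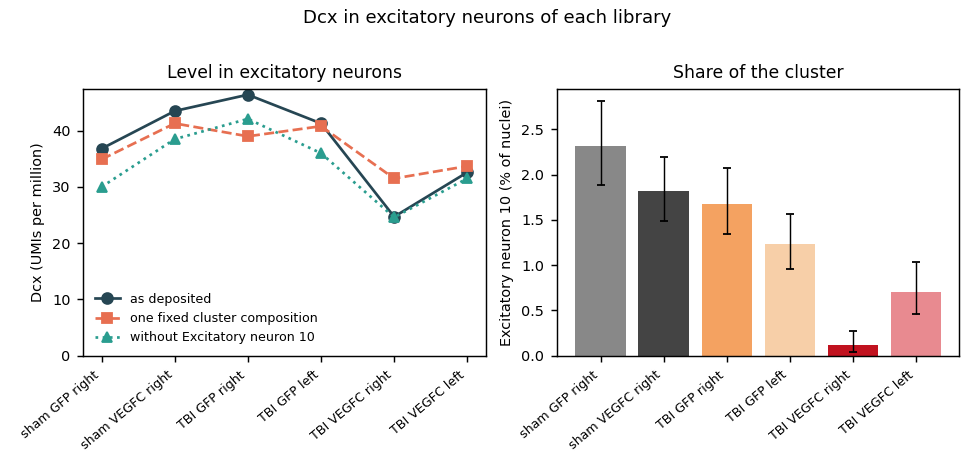
Dcx in excitatory neurons of each library, in CPM: as deposited, at one fixed cluster composition and without Excitatory neuron 10 (left; lines only join the points), and the share of nuclei in that cluster with exact binomial 95% intervals (right). Both TBI VEGFC libraries have the lowest deposited levels (24.7 and 32.6 CPM) and the smallest shares of the cluster (0.117% and 0.707%).

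The other genes of the lineage were followed through 6 lists, tested in the same classes. The lists were radial glia-like stem cells (17 genes), cycling cells (12), neuroblasts and intermediate progenitors (15), immature granule neurons (26), dentate granule neurons (13) and regulators of newborn neurons (26). For TBI right against sham right, 0 of 376 gene and class pairs were higher and 2 were lower, both of the immature neuron list and both in glia, beside 32 higher and 32 lower of all 81848 pairs (0.0782% called). Tubb3, a tubulin of neurons, fell in oligodendrocytes by 1.47 on the log2 scale (SE 0.27, edgeR adjusted p = 0.000315), and Tubb2b, a tubulin of immature cells, fell in astrocytes by 0.91 (SE 0.22, adjusted p = 0.0312). Tubb3 in oligodendrocytes was at 119 and 84.6 CPM in sham, 59.9 and 12.6 CPM on the right after TBI and 65 and 20.9 CPM on the left, with no overlap of sham and TBI. These levels rest on 58 and 35 UMIs in sham, 40 and 7 on the right after TBI and 29 and 14 on the left. Tubb2b in astrocytes was at 47.4 and 42.5 CPM in sham and 20.1 to 28.8 CPM after TBI. Markers of neurons were summed in the same nuclei. In oligodendrocytes, 8 interneuron markers (1 at 0) summed to 145 and 172 CPM in sham and 146 to 185 CPM after TBI, and 7 dentate granule markers, without Glis3, whose level was highest in astrocyte cluster 2, to 634 and 600 CPM in sham and 639 to 713 CPM after TBI. In astrocytes the interneuron markers summed to 110 and 151 CPM in sham and 104 to 130 CPM after TBI. The 7 dentate granule markers in astrocytes summed to 197 and 172 CPM in sham and 138 to 170 CPM after TBI, lower in all 4 TBI libraries, like Tubb2b. The part of neuronal RNA in either result was not tested.

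The median log2 folds of the lists for TBI right lay from -0.068 (neuroblasts) to 0.15 (cycling cells), against -0.001 over all pairs. The stem cell list had a median of -0.043 on the right and -0.120 on the left with no call among 54 pairs. Tubb3 in oligodendrocytes was also the 1 call of the lists for TBI left (-1.27, adjusted p = 0.00646) and for VEGFC against GFP (-1.16, adjusted p = 0.00192). For the interaction, 3 of 414 pairs were higher and 1 was lower, beside 107 higher and 90 lower of all 89079 pairs (0.221% called). Rbfox3 (1.32, SE 0.34, adjusted p = 0.0308) and Icam5 (2.21, SE 0.59, adjusted p = 0.0460) in mixed neurons and Disc1 (1.23, SE 0.17, adjusted p = 0.00911) in excitatory neurons were higher, and Reln (-2.24, SE 0.45, adjusted p = 0.00270) in mixed neurons was lower. Icam5 rested on 6 to 47 UMIs a library. It was at 78.3 and 29.1 CPM in sham, 29.9 and 40.6 CPM on the right after TBI and 23.0 and 36.8 CPM on the left. Only the sham GFP library thus stood apart for Icam5. Rbfox3 was at 250 and 159 CPM in sham, 145 and 275 CPM on the right after TBI and 196 and 256 CPM on the left, with 29 to 230 UMIs a library. Disc1, a scaffold protein that regulates the integration of newborn neurons, was at 43.6 and 33.9 CPM in sham. After TBI it was at 47.8 and 97.0 CPM on the right and 56.9 and 87.1 CPM on the left. Over the class as deposited, Disc1 thus moved opposite to Dcx. Its level was highest in granule-like cluster 3 (190 CPM), and the shares of the granule-like clusters, given above, differed between libraries. The part of cluster shares in the Disc1 result was not tested. Reln, a secreted signal of Cajal-Retzius cells and interneurons, was at 36.6 and 123 CPM in mixed neurons of sham, 89.8 and 66.9 CPM on the right after TBI and 96.8 and 56.9 CPM on the left. The other 7 listed markers of Cajal-Retzius cells summed there to 98.3 and 217 CPM in sham and 234 and 125 CPM on the right after TBI. On the left they summed to 229 and 97.1 CPM, the same order within each pair. Of those 7, Cacna2d2 and Ndnf had the most UMIs in the series (3683 and 1560) and were highest in inhibitory clusters 2 and 8. Lhx1 and Lhx5, highest in the mixed cluster, had 19 and 38 UMIs. The part of Cajal-Retzius cells in the Reln result was not tested.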

How the data were processed

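Single-nucleus 3' RNA was measured in 6 hippocampal libraries (10x Genomics, per the labels' protocols). The submitters' processing notes name Cell Ranger 7.0.1, Scanpy and mm10. Values in the deposited table are whole-number UMI counts with no normalization, and the authors' metadata add each nucleus's class, cluster, total and doublet score, with no caller named. Counts of 26823 of 28650 nuclei summed to the deposited total. The lowest depth was 1001 UMIs and the highest doublet score 0.099, so doublets were not called again.

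Counts were summed by class or cluster with at least 20 nuclei in every library, and tested with edgeR 4.0.16 (R 4.3.3): filterByExpr, TMM, context and vector (2 residual degrees of freedom), Benjamini-Hochberg adjustment, threshold 0.05. SE is the absolute log2 fold over the square root of F. Alternatives were RLE, library totals, no filter, DESeq2 1.42.0, limma-voom 3.58.1, doublet scores up to 0.05, at least 1500 UMIs, equal nuclei, other models and each library left out. Fixed composition weights cluster levels by the UMIs of all libraries. Thinning drew 1000 UMIs per nucleus. Likeness is Pearson's r of log2(CPM + 1) over clusters, among genes with at least 200 UMIs. The 3 highest clusters, the 5 most similar genes and up to 4 called genes per list are named, except 1 similar gene that is not reported here. The fit was checked on simulated counts. The members and lists were chosen with earlier results of these data known.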

Additional observations from a re-analysis of the deposited data

How the results depend on the processing

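The count of 0 called genes for TBI right against sham right held in classes under 16 alternatives, in clusters under 9 and over all nuclei under 8, and that for VEGFC against GFP under 15. For TBI left against sham right the count became 1 with no filter on low counts (Igfbpl1 in inhibitory neurons), and it ranged from 0 to 1 when libraries were left out. For the interaction it became 1 with doublet scores of at most 0.05 (Dcx in excitatory neurons) and ranged from 0 to 1 when libraries were left out; the interaction could not be estimated without a sham library. At doublet scores of at most 0.05, Igfbpl1 in inhibitory neurons moved to -1.30 on the right and -2.42 on the left without a call, and fibroblasts and microglia could not be fitted because a library was empty. At fixed composition the all-nuclei difference of Igfbpl1 on the right moved to -0.20; the cause was not tested beyond that weighting. Without Inhibitory neuron 2, an alternative chosen after seeing the data, it was -0.44. The log2 ratio of nuclei with several of the genes was -0.12 with no thinning and ranged from -0.12 to 0.40 when libraries were left out, and with 3 genes or in granule-like clusters alone it had libraries at 0 and no value. Fits with a library left out have 1 library in a group, so a call or its absence there does not measure the spread within that group. No paired analysis was possible because the libraries share no replicate number. Depth limits Eomes, Draxin and every gene in astrocyte cluster 2, and each group has 2 libraries.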
